A study of Mus musculus with 2 samples.

Results

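The genes described here encode the ATP-dependent chromatin remodellers of the SWI/SNF, CHD and INO80 classes with their closest relatives, in sorted innate lymphoid cell (ILC) progenitors of the mouse. They were chosen by gene symbol in the platform annotation of the deposited value table. The rule uses no measured value, but the gene classes were picked with earlier results of these data known. The rule found 37 of the 19505 named genes, of which 36 are genes and 1, Smarca5-ps, is a pseudogene copy of Smarca5. Each had 1 probe set. Arid1a, Chd2 and Chd4 were not analysed here.

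The study hybridised RNA to 2 arrays, 1 per genotype. The first held RNA of wild-type ILC progenitors from littermates, and the second RNA of progenitors labelled Yeats4 knockout, from mice with a deletion of Yeats4. Cells of both genotypes were sorted as lineage-negative, CD127+, α4β7+ cells with intermediate c-Kit and Sca-1. How many mice were used, their age and sex, and the Cre line or other means of deletion were not stated in the labels. Since each genotype has a single array, replicate error is unknown and nothing was tested, and each difference compares these arrays and not the genotypes. The second array is called knockout-labelled throughout.

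Chromatin remodellers use a SNF2-type ATPase motor to slide, eject or exchange nucleosomes, and most work inside large complexes with many accessory subunits. SWI/SNF complexes open enhancers and promoters, CHD proteins act in assembly, in the repressive NuRD complex or at active genes, ISWI proteins space nucleosomes, and INO80 exchanges and spaces them and acts in DNA repair and replication. In blood formation Smarca4 is needed for lymphoid and myeloid differentiation. Yeats4 is not itself one of these genes. Its protein is a reader of acetylated histones in the related SRCAP and Tip60 complexes, which share the actin-related subunit Actl6a or the RuvB-like ATPases with SWI/SNF or INO80.

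The remodeller genes as a set showed differences of the size seen over all genes. Of the 37, 34 passed the level filter, which asks for a mean of both arrays of at least 2.88 on the log2 scale of the deposited RMA values, the median of all probe sets. None of the 34 was at least 2-fold higher on the knockout-labelled array, against 1.56% of the 10881 genes past the filter, and none was at least 2-fold lower, against 0.781%. At 1.5-fold, 2 of 34 were higher (5.88%), against 9.16% of all genes, and none was lower, against 5.16%. Those past 1.5-fold were Ino80e and Hells, but Hells lay under the negative control level on both arrays, so its fold is not usable. That level is the 95th percentile of the negative control probe sets, 4.80 for wild type and 4.73 for the knockout-labelled array. Among genes above that level on both arrays the count was 1 of 28 (3.57%), against 6.28% of 5283. The median difference (knockout-labelled minus wild type throughout, log2) was 0.18 over the 34, and 0.08 over all genes past the filter.

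The median difference of all genes varied with their level. All genes with a mean between 6 and 7 had a median difference of 0.17, where 12 of the remodellers lay with a median of 0.10. All genes between 5 and 6 had a median of 0.13, and the 11 remodellers there one of 0.23. At the lowest levels, between 2.88 and 4, all genes had a median of -0.04 and the 4 remodellers there, all under the negative control level, one of 0.33. After a loess correction on level the median of the 34 was 0.06, and that of all genes 0.0023. In all, 26 of the 34 lay above 0 (76.5%), against 58.2% of all genes, and 22 lay above the loess curve (64.7%), against 50.2%. The plot of differences against level shows the remodellers inside the cloud of all genes.

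**Figure D1:**
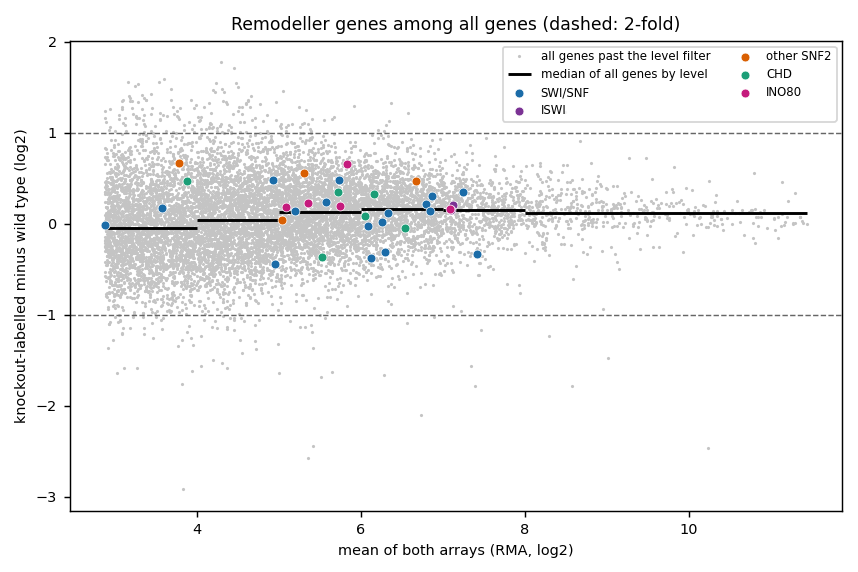
Difference between the arrays (knockout-labelled minus wild type, log2) against the mean of both arrays (RMA, log2) for all 10881 genes past the level filter in grey and the 34 remodeller genes past it in colour by class; black lines are the medians of all genes by level, from -0.04 at the lowest levels to 0.17 between 6 and 7. All remodellers lie between -0.44 and 0.66, inside the dashed 2-fold lines.

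Single genes were set beside the local median and local spread, the median and the scaled median absolute deviation of the differences of the 500 genes whose mean level was closest. The spread describes scatter between these arrays and is not a replicate error. By this measure 6 remodellers lay more than 1 local spread above the median of those genes (17.6%, against 15.9% of all genes), namely Ino80e, Hells, Smarcad1, Atrx, Chd8 and Pbrm1. A further 5 lay more than 1 local spread below it (14.7%, against 15.3%), namely Smarca4, Arid1b, Smarcd2, Actl6b and Chd3. Both shares were close to those of all genes. Hells and Chd8 were under the negative control level on both arrays, Pbrm1 in wild type and Actl6b on the knockout-labelled array. Without such genes 3 of 28 remodellers lay above (10.7%, against 13.3% of all such genes) and 4 below (14.3%, against 15.9%). Of the 17 SWI/SNF genes past the filter, 4 lay below (23.5%), against 15.3% of all genes.

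**Figure D2:**
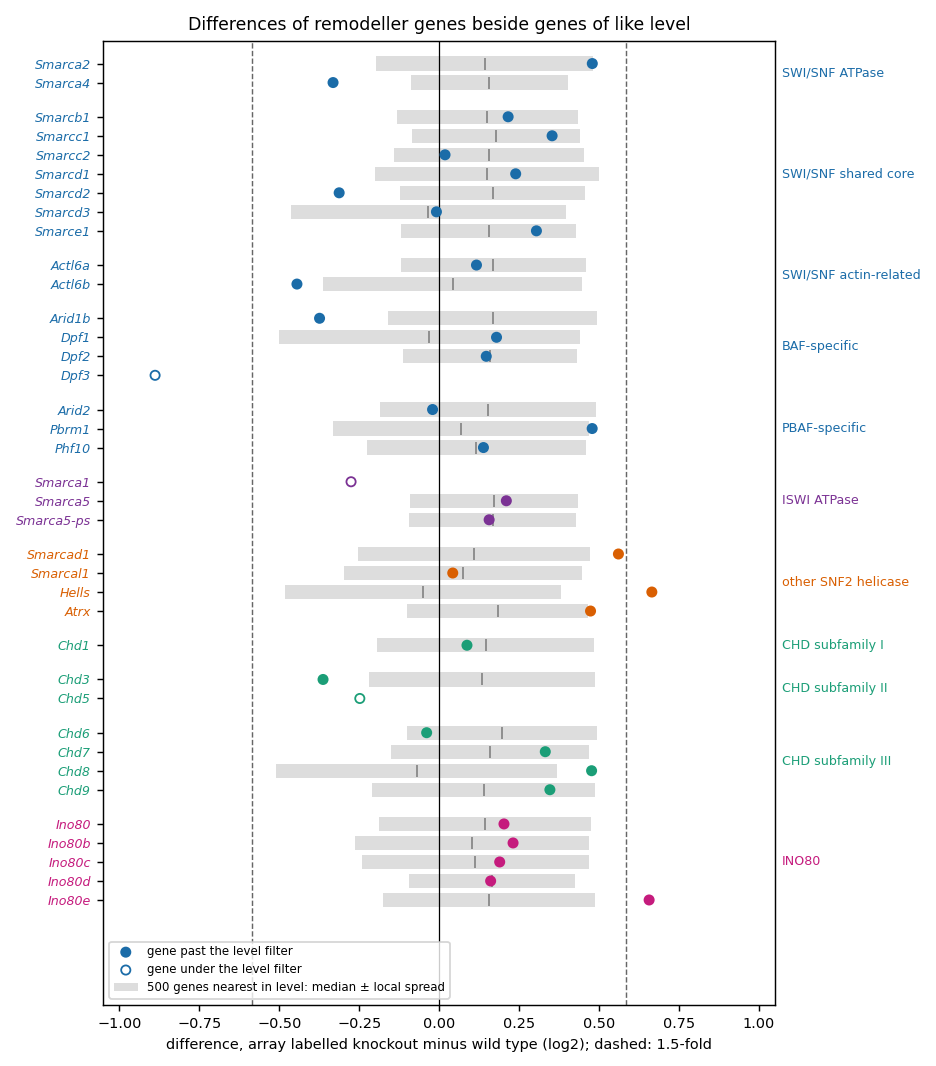
Difference between the arrays (log2) for each of the 37 remodeller genes by complex, beside the median and local spread of the 500 genes nearest in level (grey bars, drawn for genes past the filter). Smarca4, Smarcd2, Arid1b, Actl6b and Chd3 lie left of their grey bar, and Ino80e and Hells lie past the dashed 1.5-fold line on the right.

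Promoter sequences are shown for 3 genes: Smarca2 and Smarca4, the alternative SWI/SNF motors whose differences had opposite signs, and Ino80e, the gene with the largest difference among those above the negative control level on both arrays. They are RefSeq sequences of build GRCm38.p6, matched by gene identifier, and each gives the 250 bases before the annotated start, 5′ to 3′ on the gene's strand. Ino80e has 2 annotated starts, and the upstream one was used. Capitals mark every match, on either strand, to 6 short motifs. The GC box, bound by SP and KLF factors, was searched as GGGCGG. The CCAAT box, bound by NF-Y, was searched by the letters of its name. The ETS-type site was searched as CGGAAG. The core of E2F sites was searched as GGCGGGA, which can overlap the GC box. The E-box, bound by MYC and its relatives, was searched as CACGTG. The core of YY1 sites was searched as GATGGCG.
Smarca2 (chr19:26604910-26605159, plus strand): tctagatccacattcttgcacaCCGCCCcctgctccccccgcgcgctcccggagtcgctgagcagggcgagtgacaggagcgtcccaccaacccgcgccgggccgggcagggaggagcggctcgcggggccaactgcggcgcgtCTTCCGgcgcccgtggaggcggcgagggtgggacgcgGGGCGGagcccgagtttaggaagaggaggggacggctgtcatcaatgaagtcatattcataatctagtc
Smarca4 (chr9:21615919-21616168, plus strand): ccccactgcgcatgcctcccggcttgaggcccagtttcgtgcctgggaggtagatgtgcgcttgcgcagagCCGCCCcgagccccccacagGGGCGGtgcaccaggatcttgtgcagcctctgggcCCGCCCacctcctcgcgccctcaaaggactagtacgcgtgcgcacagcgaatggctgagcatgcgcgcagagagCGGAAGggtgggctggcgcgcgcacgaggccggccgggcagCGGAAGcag
Ino80e (chr7:126862373-126862622, minus strand): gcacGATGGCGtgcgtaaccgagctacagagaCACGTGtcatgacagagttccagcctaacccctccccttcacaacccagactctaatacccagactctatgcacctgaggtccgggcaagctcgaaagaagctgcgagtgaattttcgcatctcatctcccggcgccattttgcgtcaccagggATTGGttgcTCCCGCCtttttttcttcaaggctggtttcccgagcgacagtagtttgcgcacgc

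The printed stretch of Smarca2 holds 28 CpG dinucleotides, that of Smarca4 25 and that of Ino80e 17. Smarca2 has 2 GC boxes and 1 ETS-type match, and Smarca4 has 3 and 2. Ino80e has no GC box there and 1 match each to the CCAAT box, the E2F-type core, the E-box and the YY1-type core. RefSeq windows were found for 29 of the 37 genes, with 33 starts, each reaching from 250 bases before the start to 50 after it. The window of the other Ino80e start, not printed, held a GC box and no match to the other motifs. A GC box was present in 81.8% of these windows, against 60.3% of the 11247 windows of genes past the filter and 35.7% of all 32851 windows. The ETS-type match was present in 21.2%, against 29.7% and 16.9%, and the YY1-type core in 9.09%, against 6.13% and 3.49%. CCAAT was found in 36.4% of the windows of the remodellers, against 37.4% and 37.4%, the E2F-type core in 12.1%, against 20.2% and 11.3%, and the E-box in 6.06%, against 9.80% and 7.15%. The median window of the remodellers held 26 CpG dinucleotides, against 20 and 7. A match says nothing of binding, and the arrays do not measure it.

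The mutually exclusive SWI/SNF motors differed in opposite directions. Smarca4, which encodes the BRG1 ATPase, read 7.58 in wild type and 7.25 on the knockout-labelled array. That is 1.26-fold lower, a difference of -0.33. It lay -0.49 from the local median (local spread 0.25), and 22 of the 500 genes nearest in level were as low or lower. Smarca2, which encodes the BRM ATPase, read 5.50 and 5.98. That is 1.39-fold higher, a difference of 0.48. It lay 0.337 from the local median, within the local spread of 0.340, and 71 of the 500 nearest genes were as high or higher. The ratio of Smarca2 to Smarca4 was thus 1.75-fold higher on the knockout-labelled array, 0.81 on the log2 scale, and 0.82 after the loess correction. How often other pairs of genes at these levels differ by as much was not tested. Both genes were above the negative control level on both arrays.

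Most shared core subunits of SWI/SNF read slightly higher, with 1 exception among those above the negative control level. So did most genes, since 65.7% of all genes above that level on both arrays lay above 0. Smarcc1, a scaffold on which the core assembles, read 7.07 in wild type and 7.42 in the knockout-labelled sample (difference 0.35), the order in which pairs of values are given from here on. Its paralog Smarcc2 read 6.25 and 6.27. Smarce1, a subunit with an HMG domain, read 6.71 and 7.02 (0.30), and Smarcb1, which contacts the nucleosome acidic patch, 6.68 and 6.90 (0.22). These genes and Smarcd1 lay above 0 on the deposited scale, while Smarcc2 turned to -0.14 after the loess correction. Each of them lay within its local spread of the local median.

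The Smarcd paralogs, which fill the same place in the complex, did not share a sign. Smarcd1 read 5.46 and 5.70 (0.24). Smarcd2, the paralog known for its part in neutrophil granule formation, read 6.46 and 6.14, a difference of -0.31. It lay -0.48 from the local median (local spread 0.29), and 34 of the 500 nearest genes were as low. Smarcd3, the cardiac and neural paralog, was at 2.88 on both arrays, under the negative control level and at the edge of the filter. The neutrophil markers Ltf and Camp, of secondary granules, differed by -0.55 and -0.41, while Elane, Mpo and Prtn3, of primary granules, differed by 0.34, 0.25 and 0.55. Over the 8 neutrophil markers, 3 were above 0 and 5 below, and their mean log2 level was 9.95 in wild type and 9.91 in the knockout-labelled sample. Their part in the value of Smarcd2 was not tested.

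Of the actin-related subunits, Actl6a, which is shared by SWI/SNF, INO80 and Tip60 complexes, read 6.28 and 6.39, a difference of 0.12, or -0.04 after the loess correction. Actl6b, its neuronal counterpart, read 5.17 and 4.72, the latter just under the negative control level, so that it was at least 1.29-fold lower. As measured the difference was -0.44, and it lay -0.49 from the local median (local spread 0.40).

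Of the subunits that set BAF apart from PBAF, 4 of the 5 named for BAF were measured, without Arid1a, and all 3 named for PBAF. For BAF, Arid1b, a large DNA-binding subunit, read 6.31 and 5.94, a difference of -0.37. It lay -0.54 from the local median (local spread 0.33), and 31 of the 500 nearest genes were as low. Dpf2, a reader of histone tails and the main DPF subunit in blood cells, read 6.77 and 6.92 (0.15, and -0.01 after the loess correction). Dpf1 read 3.49 and 3.67, near background on both arrays. Dpf3 read 2.88 and 1.99, the largest difference of any remodeller in size (-0.89), but both values lay under the negative control level and their mean was under the filter.

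For PBAF, Pbrm1, the subunit with many bromodomains, read 4.69 and 5.17. The wild-type value lay under the negative control level, so Pbrm1 was at least 1.29-fold higher, and as measured the difference was 0.48, which is 0.411 from the local median (local spread 0.400). Arid2 read 6.09 and 6.07 and Phf10 read 5.12 and 5.26, each within its local spread. Over the 17 SWI/SNF genes past the filter, 11 lay above 0 and 6 below, with a median of 0.14, or 0.03 with 9 above and 8 below after the loess correction. Of all genes, 58.2% lay above 0 and 50.2% above the loess curve.

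**Figure D3:**
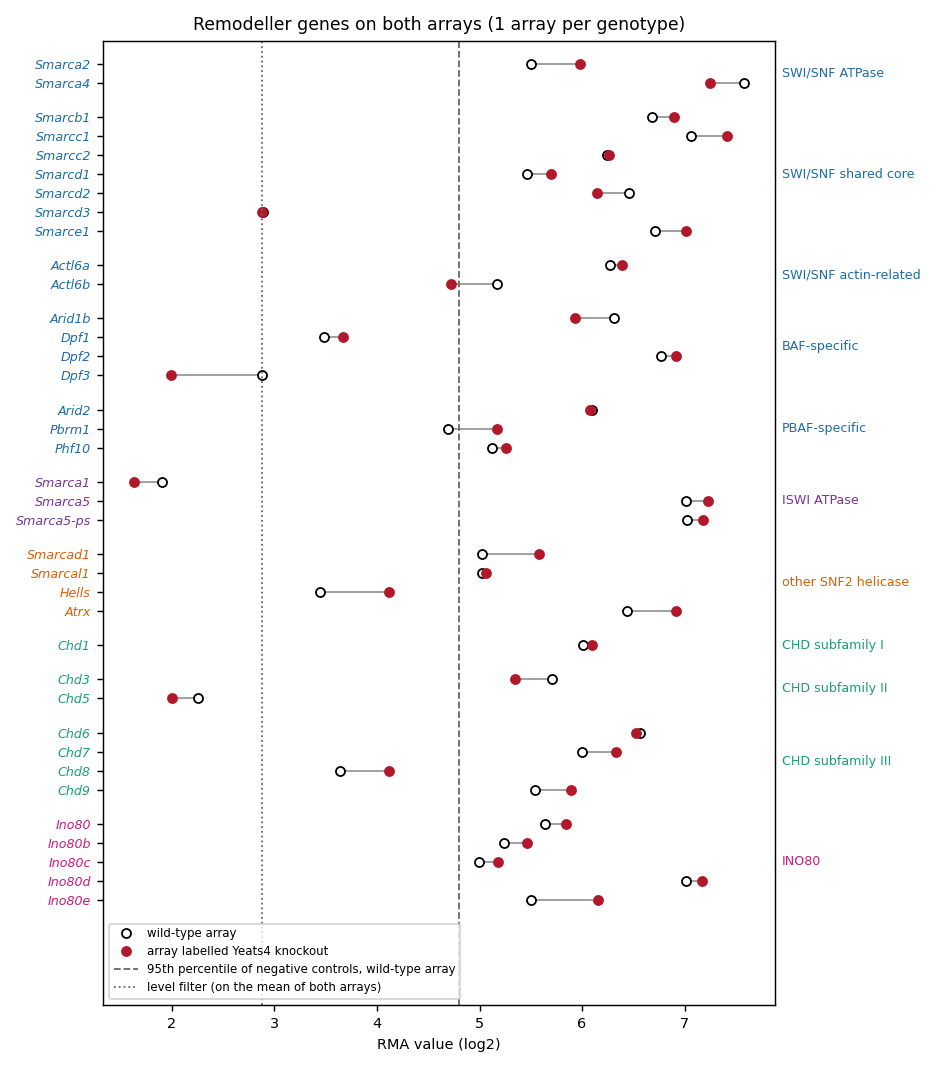
RMA value (log2) of each of the 37 remodeller genes in wild type (open circles) and on the array labelled Yeats4 knockout (filled circles), by complex; the dashed line is the 95th percentile of the negative controls on the wild-type array and the dotted line the level filter. Smarca4 reads lower and Smarca2 higher on the knockout-labelled array, and 7 genes lie left of the dashed line on both arrays.

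Further SWI/SNF subunits, taken from a list outside the rule, read lower more often than not. Of 11 genes, 8 were below 0, against 41.0% of all genes, with a median of -0.20, or -0.19 over the 8 above the negative control level on both arrays. After the loess correction all 11 lay below 0, with a median of -0.32. Bcl11b, a zinc finger subunit and T cell commitment factor, differed most (3.83 and 2.85, near background on both arrays), followed by Bcl7b (5.05 and 4.75, a difference of -0.29) and Bcl11a (7.0 and 6.76, a difference of -0.24). The bromodomain subunit Brd7 was at -0.20, and the GLTSCR1-type subunits Bicra and Bicral were at -0.16 and -0.19. As deposited, Ss18 was at 0.14, Bcl7a at 0.10 and Brd9, near background on both arrays, at 0.02.

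Markers of lymphoid cells also read lower on the knockout-labelled array. Among 7 T cell markers, 6 were below 0, against 41.0% of all genes. The mean log2 level of the 7 was 6.12 in wild type and 4.37 in the knockout-labelled sample. All 6 B cell markers were below 0, with mean levels of 7.05 and 6.03. On the knockout-labelled array Cd3d, Cd3g, Cd8a and Cd8b1 lay under the negative control level, as did Pax5 and Vpreb1. T cells express Bcl11b, and B cells and their progenitors express Bcl11a. The sort kept lineage-negative cells, a gate meant to remove mature T and B cells. The part of these cells in the SWI/SNF values was not tested, and in bulk RNA fewer cells of a type and less RNA per cell cannot be told apart.

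The ISWI motor Smarca5, also called SNF2H, read 7.02 and 7.23 (0.21). The probe set of Smarca5-ps read 7.02 and 7.18. Because the pseudogene is a near copy, its reading may come from Smarca5 transcripts and is not taken as a second measurement. Smarca1, the other ISWI motor, read 1.91 and 1.63, under the filter and near background. Among genes listed as ISWI partners, 8 of 9 past the filter were above 0, against 58.2% of all genes, with a median of 0.30. After the loess correction 7 of 9 were above 0, against 50.2%, with a median of 0.15. The list includes Pole4, a histone-fold subunit of DNA polymerase epsilon rather than of an ISWI complex. It was highest (5.95 and 6.58, a difference of 0.63). Next were Bptf, the large subunit of NURF (6.64 and 7.16, 0.53), and Baz1a, the ACF1 subunit (6.81 and 7.21, 0.40). Cecr2 read 3.07 and 2.26, under the filter.

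The remaining SNF2 helicases had the highest median of the classes, 0.52 over 4 genes, or 0.38 after the loess correction and 0.47 over the 3 above the negative control level on both arrays. Hells, which works in DNA methylation of repeats and is linked to proliferation, read 3.45 and 4.11, a difference of 0.66. Both values lay under the negative control level, so no fold is given. Smarcad1, which acts in heterochromatin restoration after replication, read 5.02 and 5.58. That is 1.47-fold higher, a difference of 0.56. It lay 0.45 from the local median (local spread 0.36), and 71 of the 500 nearest genes were as high. Atrx, which deposits histone H3.3 with Daxx at repeats, read 6.44 and 6.91 (1.39-fold higher, a difference of 0.47). It lay 0.291 from the local median (local spread 0.282), and 69 of the 500 nearest genes were as high.

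Smarcal1, which remodels stalled replication forks, read 5.02 and 5.06, a difference of 0.04 that turned to -0.05 after the loess correction. Of 8 replication markers, all were above 0, against 58.2% of all genes, with a median of 0.21. Of genes above the negative control level on both arrays, as all 8 were, 65.7% lay above 0. After the loess correction 7 of 8 were above 0, against 50.2% of all genes, with a median of 0.05. The mean log2 levels of the 8 markers were 6.86 and 7.17. Cdc45 (0.78) and Cdc6 (0.52) had the highest differences of these markers. The part of replication in the values of Hells and Smarcad1 was not tested.

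The CHD genes were mixed in sign, and with Chd2 and Chd4 left out the first subfamily and, past the filter, the second each rest on 1 gene. Chd1, which works at transcribed genes, read 6.01 and 6.10, a difference of 0.09, or -0.06 after the loess correction. Chd3, a NuRD motor, read 5.71 and 5.35. That is 1.29-fold lower, a difference of -0.36. It lay -0.50 from the local median (local spread 0.35), and 43 of the 500 nearest genes were as low. Chd5, the neural member of this subfamily, read 2.25 and 2.01, under the filter and near background. The NuRD partners were mixed, with 9 of 12 above 0, against 58.2% of all genes, and a median of 0.09. After the loess correction 4 of 12 were above 0, against 50.2%, with a median of -0.06. None passed 1.5-fold. The largest differences were those of Mbd3 (4.38 and 4.83, at least 1.02-fold higher), Mta1 (0.26) and Rbbp7 (0.26), and the deacetylases Hdac1 and Hdac2 were at 0.06 and 0.15.

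In the third CHD subfamily 3 of 4 genes read higher, against 58.2% of all genes. Chd7, the gene of CHARGE syndrome, read 6.0 and 6.33 (1.26-fold higher, a difference of 0.33), which is 0.17 from the local median and within the local spread of 0.31. Chd9 read 5.54 and 5.89 (a difference of 0.35), which is 0.21 from the local median and within the local spread of 0.35. Chd8, a regulator of β-catenin targets, read 3.64 and 4.12, under the negative control level on both arrays. Chd6 read 6.56 and 6.52, within its local spread. The difference between CHD subfamilies was not tested. Over the 6 CHD genes past the filter the median was 0.21, with 4 above 0 and 2 below, but 0.06 with 3 on each side after the loess correction. The share of all genes above the loess curve was 50.2%.

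All 5 INO80 genes under the rule read higher on the knockout-labelled array, as they did after centring on the median, quantile normalization of the table and the loess correction. Their median was 0.20 on the deposited scale and 0.09 after the loess correction. Above 0 lay 58.2% of all genes, and 65.7% of those above the negative control level on both arrays, as all 5 were. Ino80d was near 0 after the loess correction (0.0099) and quantile normalization (0.0081), and it lay -0.0046 from its local median. Ino80, the ATPase, read 5.64 and 5.85 (0.20). Ino80b read 5.23 and 5.46 (0.23), Ino80c 4.99 and 5.18 (0.19) and Ino80d 7.01 and 7.17 (0.16), and each of these lay within its local spread. Ino80e, at 5.50 and 6.16, alone of the 5 lay past its local spread. It was 1.58-fold higher, a difference of 0.66. It lay 0.50 from the local median (local spread 0.33), and 21 of the 500 nearest genes were as high or higher.

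INO80 subunits outside the rule did not share this sign. Of 9 past the filter, 4 were above 0, against 58.2% of all genes, and 5 below, and the median was -0.02. Among the 7 above the negative control level on both arrays, 3 were above 0, against 65.7% of all such genes. Uchl5, a deubiquitinase that INO80 shares with the proteasome, was highest (6.19 and 6.77, a difference of 0.59), followed by Mcrs1 (4.51 and 5.0, at least 1.15-fold higher) and the RuvB-like ATPase gene Ruvbl1 (5.41 and 5.71, 0.31). Ruvbl2 was at 0.15, Yy1 at -0.02 and Actr8, near background on both arrays, at -0.04, while Nfrkb and Tfpt were at -0.24 and -0.27.

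**Figure D4:**
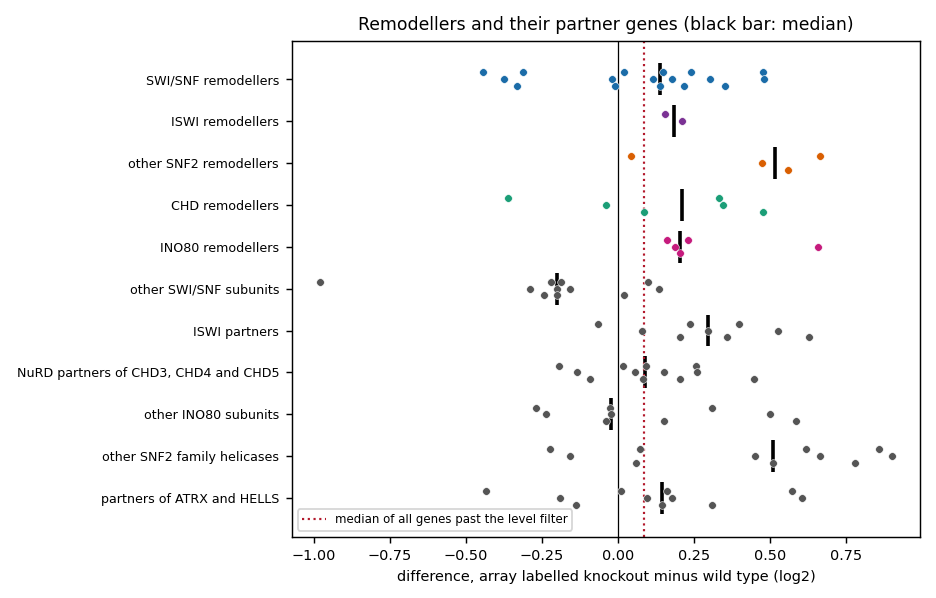
Difference between the arrays (log2) of each gene past the level filter in the 5 remodeller classes (coloured) and in 6 lists of partner or related genes (grey), with the median of each as a black bar; the dotted line is the median of all genes past the filter, 0.08. The other SWI/SNF subunits have a median of -0.20, left of 0. The other SNF2 family helicases have one of 0.51, but 0.07 over the 6 of 11 above the negative control level on both arrays.

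The samples also differed in genes other than the remodellers. Yeats4 itself read 5.96 and 5.90. Whether its probe set falls within the deleted stretch is unknown here, so this reading does not check the label. Lmo4 was 5.50-fold lower. Of the genes of the sort gate, Itga4 and Itgb7 differed by 0.00 and -0.14, Il7r by -0.70 and Kit by 0.65, and of the ILC progenitor regulators Id2 differed by 1.23, Nfil3 by -0.93, Tox by -0.58 and Zbtb16 by -0.35. All 7 macrophage markers were above 0, against 58.2% of all genes (mean log2 level 4.53 and 5.43). Of the 7, 3 were near background on both arrays, and 4 were above the negative control level on both. All 4 eosinophil markers past the filter were below 0, against 41.0% of all genes (5 markers, mean level 7.16 and 5.72). Of the 4, 3 were above the negative control level on both arrays. The 3 erythroid markers had mean levels of 5.16 and 5.09, and the 5 mitosis markers 6.95 and 7.22. The part of other cells in the remodeller values was not tested.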

How the data were processed

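Expression was measured on 2 Affymetrix arrays. The deposited values are on the log2 scale and were made by the authors with Affymetrix Power Tools and RMA, per the submitters' processing notes. RMA corrects background, quantile-normalizes the arrays and summarises probes, which hides any change in total RNA per cell. Even so, the 2 deposited columns did not have the same distribution. Their medians over all probe sets were 2.91 in wild type and 2.87 on the knockout-labelled array. The median difference of genes past the filter was 0.08, and counts above 0 on the deposited scale include this offset. No tool version or build is stated in the labels or the file. Of 29129 probe sets, 19572 carried 1 gene symbol, giving 19505 genes. For the 55 genes with several probe sets, that of highest mean was used. Probe set names belong to another Affymetrix mouse design than the Mouse Gene 2.0 array the submitters name, and gene names rest on its annotation.

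Differences were taken as deposited. The local spread is 1.4826 times the median absolute deviation over the 500 nearest genes past the filter. Values under the 95th percentile of 5222 negative controls on both arrays are called near background, and an "at least" fold is against 4.80. No p-value was computed. Loess used a span of 0.3. The procedure was tested on simulated data. All remodellers are named, with the 3 largest differences in each partner list, and other partner genes were named after their values were seen. Members and lists were chosen with earlier results of these data known. Computations used Python 3.11.15, numpy 2.4.6, pandas 2.3.3, scipy 1.17.1, statsmodels 0.14.6 and matplotlib 3.10.9.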

Additional observations from a re-analysis of the deposited data

How the results depend on the processing

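The counts at 2-fold were 0 in both directions in all 9 alternatives, but several of these could not have raised a count of 0. Each remodeller has 1 probe set, so averaging probe sets changes no remodeller value. Stricter filters and leaving out Smarca5-ps only remove genes, and raising values to the negative control level only shrinks differences. The count at least 1.5-fold higher (2 as reported) was 1 with the filter at the 75th percentile, the loess correction, quantile normalization of the table, values raised to the negative control level, or, chosen after seeing the data, genes above the negative control level on both arrays. It was 0 after centring on the median. The count at least 1.5-fold lower was 1 with no level filter, where Dpf3 enters, and 0 otherwise. The median of all remodellers (0.18) was 0.0599 after the loess correction and 0.0656 after quantile normalization, that of SWI/SNF genes (0.14) 0.0274 and 0.0265, and that of INO80 genes (0.20) 0.0883 and 0.0858. The median of CHD genes (0.21) was 0.0576 and 0.0698 in those settings, 0.0433 with raised values, and 0.0867 with the filter at the 75th percentile, with no level filter and with genes above the negative control level on both arrays. Leaving out Smarca5-ps, also chosen after seeing the data, moved no median by over 0.1. Hells, Chd8 and Dpf3 had a difference of 0.00 with raised values. Quantile normalization changed the sign of 7 remodellers, the loess correction of 6 and centring of 2, all with small differences as deposited. No paired analysis was possible because each genotype has 1 array. The number of arrays limits the precision, and 7 of 37 genes lay under the negative control level on both.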

Other observations

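Among other SNF2 family helicases, taken from a list outside the rule, 9 of 11 read higher on the knockout-labelled array (median 0.51). Of all genes, 58.2% did. After the loess correction 7 of 11 lay above 0 (median 0.49), against 50.2% of all genes, and after centring on the median also 7 of 11 (0.43). These medians were carried by genes near background. Over the 6 above the negative control level on both arrays the median was 0.07, against 0.13 over all such genes, and 1 of the 6, Shprh, was at least 1.5-fold higher (6.28% of all such genes). Rad54l2 (4.33 and 5.23) was at least 1.34-fold higher and Shprh, a ubiquitin ligase of DNA damage tolerance, read 4.91 and 5.52. Ttf2 (3.31 and 4.16), Ercc6 (3.33 and 3.78), Ercc6l (2.80 and 3.58) and Zranb3 (2.60 and 3.27) were near background on both arrays. Hltf, a relative of Shprh, was at 0.51, Ep400, the motor of Tip60 complexes, at 0.06 and the recombination factor Rad54l at 0.07, while Chd1l was at -0.22 and Btaf1 at -0.16. The list was chosen with earlier results of these data known.

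Partners of ATRX and HELLS were mixed, with 8 of 11 above 0, against 58.2% of all genes. Their median was 0.14, or 0.01 after the loess correction. Cdca7l, a relative of the HELLS partner Cdca7, read 6.96 and 7.54 (0.57), Cdca7 itself was at 0.14 and the ATRX partner Daxx at -0.14. Of the DNA methyltransferases, Dnmt1 read 6.77 and 7.08 (0.31), Dnmt3b was near background on both arrays (3.51 and 4.12) and Dnmt3a (4.93 and 4.50) was at least 1.09-fold lower.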
